A study of Mus musculus with 4 samples.

Results

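Zinc transporters and metallothioneins were examined in the mucosa of the mouse colon as 10 named genes. These were the metallothioneins Mt1, Mt2, Mt3 and Mt4, the zinc-sensing transcription factor Mtf1, the exporters Slc30a1 and Slc30a10, and the importers Slc39a4, Slc39a5 and Slc39a8. The genes were chosen by name, with earlier results of these data known. Every probe set whose only platform symbol was one of these names was taken. That gave 18 of the array's 45101 probe sets, and 10 of the 18194 genes that carry a single symbol on the array. Of the 10 genes, 5 had more than 1 probe set. For these the brightest probe set, by its mean over the arrays, stood for the gene, and the others are given beside it.

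The series compared 4 genotypes of mice of 5 weeks on the 129S6/SvEv background, with 1 array each. The VhlF/F mice carried floxed Vhl and are the controls (4 mice in the design text). The VhlΔIE mice had lost Vhl in the intestine (3 mice). The VhlF/F/Apcmin/+ mice carried floxed Vhl with the Min mutation of Apc, a model of intestinal tumours (3 mice), and the VhlΔIE/Apcmin/+ mice carried both changes (5 mice). The arrays are called Vhl floxed, Vhl deleted, Vhl floxed Apc Min and Vhl deleted Apc Min below. Neither the promoter that drives Cre nor whether the RNA of several mice was pooled is given in the sources used here. All values are the authors' RMA values on the log2 scale, where a difference of 1 is a 2-fold difference. With 1 array per genotype no difference has a replicate check and no p-value is given. Even 2 arrays against 2 cannot give an exact two-sided permutation p below 0.33.

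Zinc enters intestinal epithelial cells through importers of the ZIP (Slc39) family and leaves the cytosol through exporters of the ZnT (Slc30) family. Metallothioneins are small cysteine-rich proteins that bind zinc, copper and cadmium. When free zinc is high, Mtf1 binds metal response elements in promoters and raises the transcription of Mt1, Mt2 and Slc30a1. Several family members carry other metals as well: Slc39a8 and Slc39a14 import manganese besides zinc, and Slc30a10 exports manganese. Vhl is the recognition subunit of the ubiquitin ligase that removes hypoxia-inducible factors, which bind hypoxia response elements.

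The promoters of Slc30a10, whose level differed most with Vhl status, and of the classical Mtf1 targets Mt1, Mt2 and Slc30a1 are printed here. Both kinds of element can be looked for in them. They are the 250 bases before the RefSeq start site, from the RefSeq promoter table of GRCm38.p6, 5′ to 3′. Capitals mark matches, on either strand, to the core of the metal response element (TGCACNC or TGCGCNC) or of the hypoxia response element (ACGTG or GCGTG).
Slc30a10 promoter, chr1:185454598-185454847, plus strand: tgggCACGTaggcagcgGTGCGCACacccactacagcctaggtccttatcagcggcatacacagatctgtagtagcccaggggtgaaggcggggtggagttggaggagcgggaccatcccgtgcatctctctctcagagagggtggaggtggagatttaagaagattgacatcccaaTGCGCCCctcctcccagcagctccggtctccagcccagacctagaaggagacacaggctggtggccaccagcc
Mt1 promoter, chr8:94178839-94179088, plus strand: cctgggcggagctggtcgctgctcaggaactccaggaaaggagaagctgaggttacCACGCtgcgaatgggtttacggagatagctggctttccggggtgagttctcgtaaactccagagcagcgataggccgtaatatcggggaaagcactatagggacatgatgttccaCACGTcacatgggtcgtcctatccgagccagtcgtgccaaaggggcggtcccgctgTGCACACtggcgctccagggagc
Mt2 promoter, chr8:94172368-94172617, plus strand: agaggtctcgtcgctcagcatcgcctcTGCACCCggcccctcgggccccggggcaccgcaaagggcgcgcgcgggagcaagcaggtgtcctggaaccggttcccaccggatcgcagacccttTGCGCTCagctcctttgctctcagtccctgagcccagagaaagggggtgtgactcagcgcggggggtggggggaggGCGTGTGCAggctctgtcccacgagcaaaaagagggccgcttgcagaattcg
Slc30a1 promoter, chr1:191906531-191906780, plus strand: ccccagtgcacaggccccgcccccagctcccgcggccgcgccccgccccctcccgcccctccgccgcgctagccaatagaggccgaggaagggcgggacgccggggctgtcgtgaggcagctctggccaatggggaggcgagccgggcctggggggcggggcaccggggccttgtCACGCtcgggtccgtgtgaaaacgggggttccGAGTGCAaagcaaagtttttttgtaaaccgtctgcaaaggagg

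Counted over the whole table entry, which runs 50 bases past the start site, the metal response core was matched 3 times at Slc30a10, 3 times at Mt1, 4 times at Mt2 and 2 times at Slc30a1. Among the 32851 promoter entries of the table, 25.7% held at least 1 match, 7.11% at least 2, 1.97% at least 3 and 0.517% at least 4. At Slc30a10, 2 of the 3 matches lie on opposite strands and overlap, so they fill 2 places. At Mt1, 2 of the 3 matches lie after the RefSeq start site. That start may lie upstream of the Mt1 start in common use. The Mt1 entry may then not hold all metal response elements of the gene, and its count is for this entry only. The hypoxia response core was matched 1 time at Slc30a10, 2 times at Mt1, 2 times at Mt2 and 1 time at Slc30a1. At least 1 match was found in 43.8% of all entries and at least 2 in 20.6%, so these counts are common. At Mt2 a match of each kind overlaps by 3 bases. Mt3 and Mt4 each held 1 match to the metal core and 0 to the hypoxia core, and Mtf1 held 0 of both. Slc39a5 and Slc39a8 have 2 start sites each in the table. Slc39a8 held 1 metal and 3 hypoxia matches at 1 start site and 0 of both at the other. Of those 3, 2 are a palindrome read on both strands. Slc39a5 held 1 hypoxia match at 1 start site and 1 metal match at the other. A match is a string of letters in this window and not a measured binding site.

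**Figure D1:**
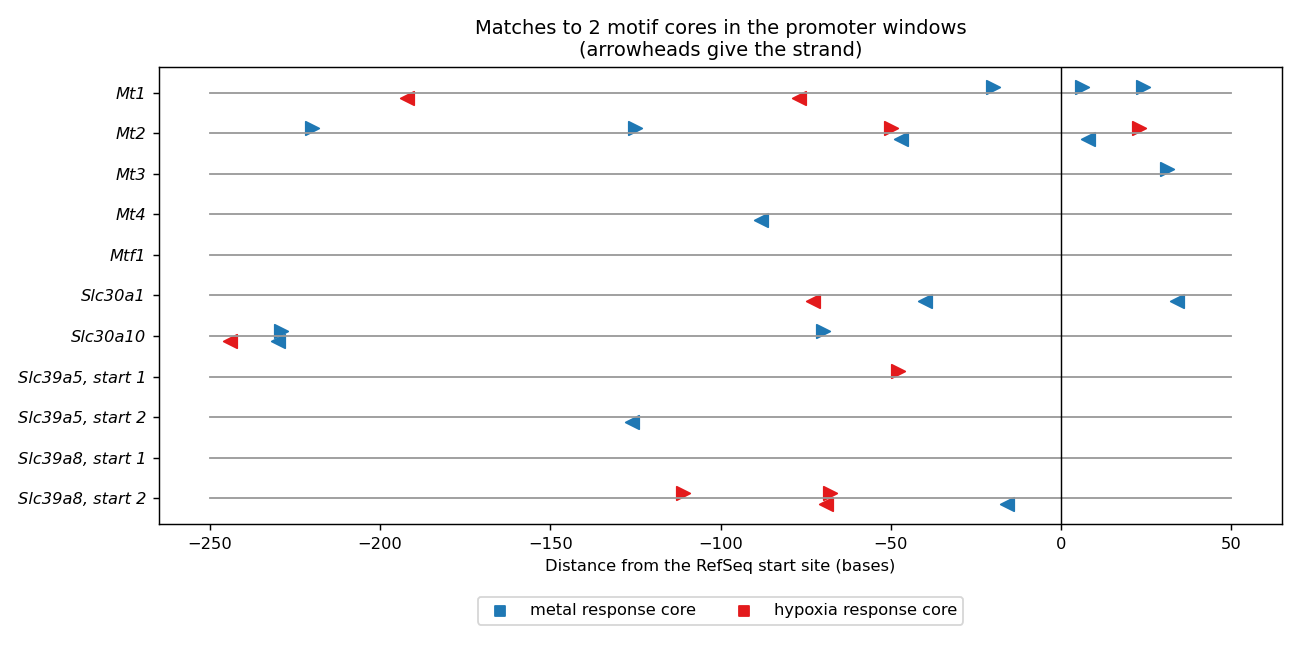
Matches to the metal response core (blue) and the hypoxia response core (red) in the promoter entries of 9 of the 10 genes, with the distance from the RefSeq start site in bases on the x axis and arrowheads giving the strand. The Mt2 entry holds 4 metal matches and the Slc30a10 and Mt1 entries 3 each.

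Facts that touch all comparisons come first. The medians of the 4 arrays lay between 6.05 and 6.07. Vhl itself read 8.40 and 7.03 in the Vhl floxed and Vhl deleted arrays, and 8.17 and 6.56 in those with Apc Min. Control probe sets for Cre read at most 4.45 in the Vhl floxed arrays and at least 7.41 in the Vhl deleted arrays. Colonocyte markers had mean levels between 12.78 and 13.27 and goblet cell markers between 13.64 and 13.73. The 10 hepatocyte markers had a mean level of 8.72 in the Vhl floxed array; in the other 3 it was 5.34 to 5.46. The 5 pancreatic acinar markers on the array lay at or under the bacterial controls in every array. Macrophage markers had mean levels of 7.53 and 7.91 in the Vhl floxed arrays and of 8.48 and 8.35 in the Vhl deleted arrays. Smooth muscle markers stood at 12.15 and 12.01 against 11.64 and 11.58. Xist was 11.37 and 11.83 with floxed Vhl against 5.58 and 6.25 with deleted Vhl, and its part in the results was not tested. The Y-linked Eif2s3y read 8.58, 8.78, 7.27 and 8.80 in the order Vhl floxed, Vhl deleted, Vhl floxed Apc Min and Vhl deleted Apc Min. It was lowest in the Vhl floxed Apc Min array, where Xist was highest. With Vhl deletion Eif2s3y was higher by 0.20 without and by 1.54 with the Apc mutation. The sex of the mice is not given in the sources used here. A difference in sex between the arrays cannot be told apart from Vhl status. In a tissue scraping, fewer cells of a type and less RNA per cell cannot be told apart.

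Of the 10 genes, Slc30a10 was the one at least 2-fold higher with Vhl deletion in both backgrounds. It was 1 of 10 genes, where 1.58% of the 11871 genes tested were. The 10 genes were chosen with earlier results of these data known, which can by itself raise their counts above the shares of all genes. Without the Apc mutation 1 of 10 genes was at least 2-fold higher, where 2.27% of all genes tested were, and 0 were at least 2-fold lower, where 1.6% were. With the Apc mutation 2 of 10 were higher, Slc30a10 and Mt3, where 2.82% of all genes were, and 0 were lower, where 1.52% were. At least 1.5-fold apart in either direction were 4 of 10 genes without the Apc mutation, where 11.3% of all genes were, and 4 of 10 with it, where 12.3% were. Mt4 is among those counted with the Apc mutation, and it passed the floor of 6 through the Vhl deleted Apc Min array alone. The median difference of the 10 genes was 0.26 without and 0.38 with the Apc mutation, beside -0.02 and -0.02 over all genes tested. In each background 8 genes lay above 0 and 2 below. Of all 11871 genes, 5532 lay above 0 without and 5515 with the Apc mutation. All 10 genes had the same sign in both backgrounds, as did 76% of all genes. Both Vhl deleted arrays lay outside the range of both Vhl floxed arrays for 7 of the 10 genes, 5 higher and 2 lower. That held for 61.2% of all genes, 27.7% higher and 33.4% lower, so such a separation is common on these arrays.

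**Figure D2:**
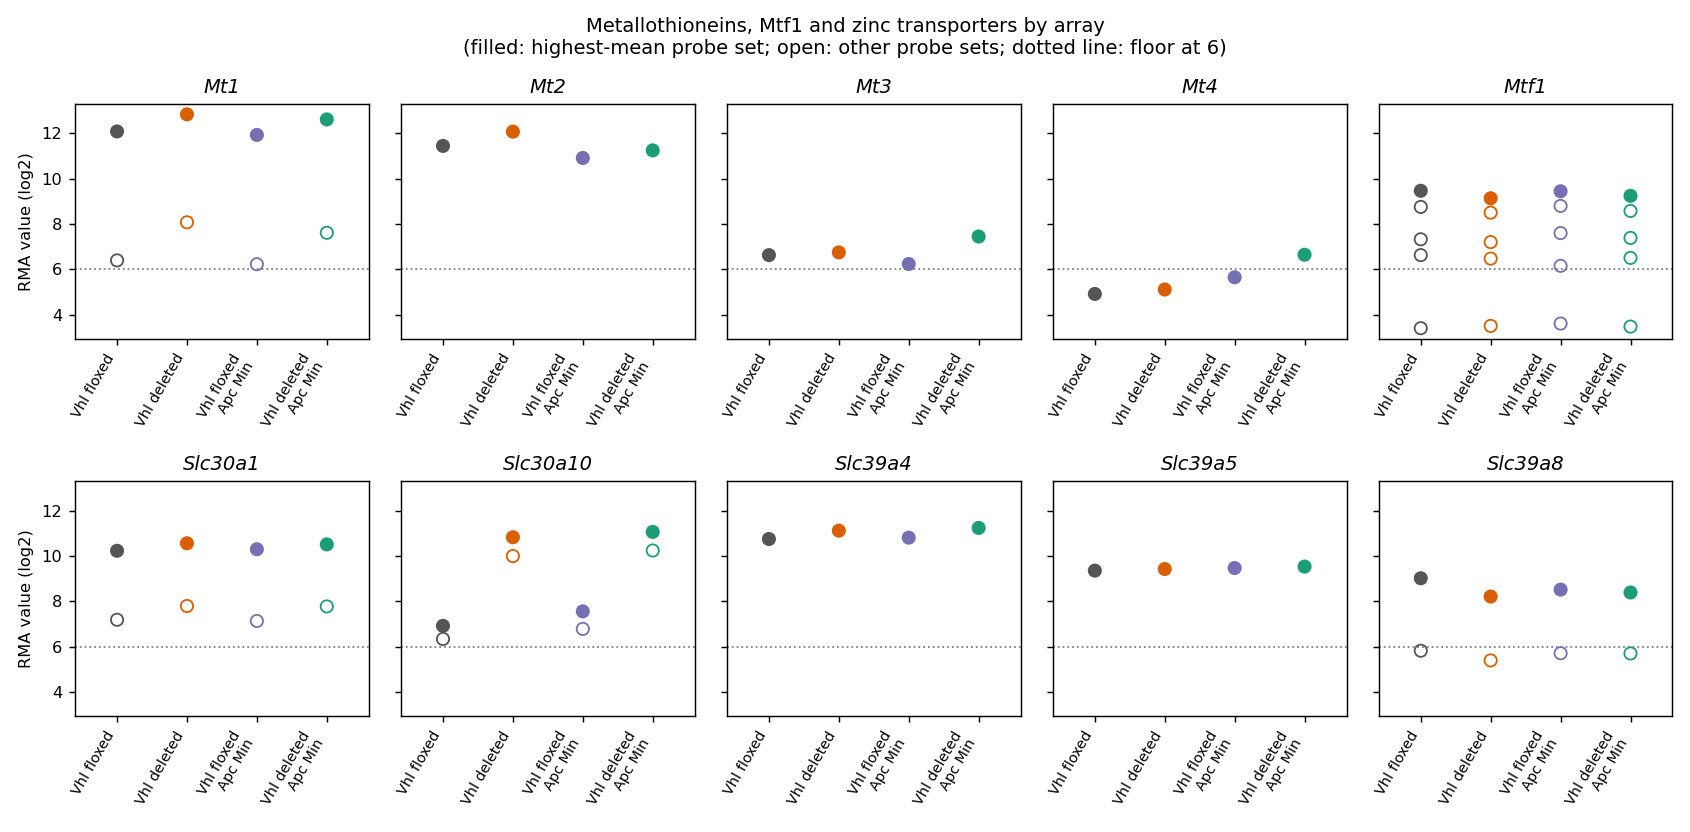
RMA values on the log2 scale (y axis) for the 10 genes in each of the 4 arrays (x axis), filled for the highest-mean probe set and open for the others, with a dotted line at 6. Slc30a10 lies at 6.92 and 7.55 in the Vhl floxed arrays and at 10.82 and 11.06 in the Vhl deleted arrays.

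Slc30a10, the exporter whose loss in people causes manganese overload, showed the largest Vhl difference of the 10 genes. Its brighter probe set read 6.92 in the Vhl floxed array, 10.82 in the Vhl deleted array, 7.55 in the Vhl floxed Apc Min array and 11.06 in the Vhl deleted Apc Min array. Both Vhl deleted arrays stood far above both Vhl floxed arrays. The differences were 3.91 without and 3.50 with the Apc mutation, which are 15.0-fold and 11.3-fold. The second probe set read 6.34, 9.99, 6.78 and 10.24 in the same order of arrays, with differences of 3.65 and 3.46. Both probe sets thus put the gene at more than 10 times its floxed level in each background. Among all 11871 genes, the Slc30a10 difference ranked 13 from the top without and 20 from the top with the Apc mutation. In the pair of arrays with the Apc mutation, whose hepatocyte means were 5.34 and 5.36 and whose single hepatocyte markers differed by between -0.90 and 0.98, the difference was 3.50. The part of hepatocyte RNA in the Slc30a10 differences was not tested.

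Patterns closest to that of Slc30a10 were those of Steap4, Egln3 and Ankrd37. Likeness was the Euclidean distance between the 4 array values after each gene was centred on its own mean, over 4 arrays. The distances were 0.34 for the metalloreductase Steap4, 0.40 for the HIF prolyl hydroxylase Egln3 and 0.44 for Ankrd37. No other named gene lay within 0.5. Egln3 read 9.89, 13.57, 10.51 and 13.55 in the order Vhl floxed, Vhl deleted, Vhl floxed Apc Min and Vhl deleted Apc Min. Like Slc30a10, all 3 were higher in the Vhl floxed Apc Min array than in the Vhl floxed array, by 0.62 to 0.97, against 0.64 for Slc30a10. With deleted Vhl the 3 differed with the Apc mutation by between -0.10 and -0.02, against 0.24 for Slc30a10.

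Slc30a1, the zinc exporter of the basolateral membrane and a classical Mtf1 target, differed little. Its brighter probe set read 10.23, 10.56, 10.29 and 10.51 in the order Vhl floxed, Vhl deleted, Vhl floxed Apc Min and Vhl deleted Apc Min. The dimmer probe set read 7.18, 7.79, 7.13 and 7.77. On both, the Vhl deleted arrays lay above the Vhl floxed arrays without overlap. The differences were 0.33 and 0.21 on the brighter and 0.61 and 0.64 on the dimmer probe set, all under 2-fold.

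Mt1 and Mt2, the metallothioneins made in most tissues and induced by zinc through Mtf1, were higher with Vhl deletion by less than 2-fold on their highest-mean probe sets. The brighter Mt1 probe set read 12.07 in the Vhl floxed, 12.83 in the Vhl deleted, 11.92 in the Vhl floxed Apc Min and 12.60 in the Vhl deleted Apc Min array. The Vhl deleted arrays lay above both floxed arrays, by 0.75 without and 0.68 with the Apc mutation. This probe set is of the kind whose probes can match more than 1 transcript. The other Mt1 probe set is not of that kind. It read 6.39, 8.07, 6.22 and 7.61, which gives differences of 1.68 and 1.39, or 3.20-fold and 2.61-fold. Both probe sets agree in direction, and the count of Mt1 as 2-fold higher rests on which one stands for the gene.

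Mt2 lies next to Mt1 on chromosome 8 and has 1 probe set on the array. It read 11.44, 12.06, 10.90 and 11.24 in the order Vhl floxed, Vhl deleted, Vhl floxed Apc Min and Vhl deleted Apc Min. The Vhl difference was 0.63 without and 0.34 with the Apc mutation, and the groups overlapped, since the Vhl deleted Apc Min array lay under the Vhl floxed array. Of the 11871 genes, 94.2% had a lower Vhl difference than Mt2 without the Apc mutation and 85.8% with it. For Mt1 these shares were 95.8% and 94.2%. Macrophage marker levels, which also moved with Vhl status, are given above, and their part in the Mt1 and Mt2 differences was not tested.

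Mt3, the metallothionein best known from brain, lay above the array medians of 6.05 to 6.07 in every array, while Mt4, known from squamous epithelium, lay under them in 3 of 4. Mt3 read 6.62, 6.74, 6.23 and 7.44 in the order used above, highest in the Vhl deleted Apc Min array. Its Vhl difference was 0.12 without and 1.21 with the Apc mutation. Mt4 read 4.91, 5.11, 5.64 and 6.64, and passed the floor of 6 through the Vhl deleted Apc Min array alone, so it could enter the comparisons only by being higher there. Its Vhl difference was 0.19 without the Apc mutation. With it the 2 arrays were 1.99-fold apart, just under the threshold. The bacterial control probe sets reached 5.10, so the Mt4 values of the Vhl floxed and Vhl deleted arrays were at or about that level. Each gene has a single probe set, which leaves no second measurement on these arrays.

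Markers of the tissues that Mt3 and Mt4 are known from were read on the same arrays. The 9 squamous markers on the array had mean levels between 5.11 and 5.22 in the 4 arrays, and Krt1, Krt13, Trp63 and Sprr3 lay at or under the control level in every array. Their level of summed linear values was between 8.87 and 8.98 on the log2 scale. The 7 neuron and glia markers had mean levels of 6.27, 6.16, 6.19 and 6.01 in the order used above, and 4 of the 7 reached the floor. Ang4, an antimicrobial ribonuclease and 1 of 4 Paneth cell markers on the array, read 10.61, 9.17, 7.35 and 11.66, while Lyz1 read between 11.67 and 12.24. The mean level of those 4 markers was 8.35, 8.18, 7.34 and 8.68. The part of these lists in the Mt3 and Mt4 values was not tested.

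The nearest patterns to Mt3 were Zdhhc21 at a distance of 0.18, Flrt3 at 0.18 and Acacb at 0.19. A further count put 189 named genes within 0.5 of Mt3, so its pattern is shared by many genes. Mt4 had no named gene within 0.5, and its nearest were Fam162b at 0.56, Dgat2 at 0.59 and H3f3b at 0.71. The 4 metallothioneins lie in the order Mt4, Mt3, Mt2, Mt1 along chromosome 8, with the predicted gene Gm39227 between Mt3 and Mt2. On their highest-mean probe sets all 4 were higher with Vhl deletion in both backgrounds, by 0.12 to 0.75 without and 0.34 to 1.21 with the Apc mutation. Of all 11871 genes, 5532 were higher without and 5515 with the Apc mutation. The 0.12 is that of Mt3 and lay under the median absolute difference of all genes, 0.18. Mt1 and Mt2 were highest in the Vhl deleted array, and Mt3 and Mt4 in the Vhl deleted Apc Min array. For Mt4 this was set by the floor of 6, which it passed through that array alone. The Mt4 values without the Apc mutation, 4.91 and 5.11, were about the control level of 5.10.

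Mtf1, the zinc finger factor that senses metal, was slightly lower with Vhl deletion. Its highest-mean probe set read 9.46, 9.13, 9.44 and 9.24 in the order Vhl floxed, Vhl deleted, Vhl floxed Apc Min and Vhl deleted Apc Min. The differences were -0.33 and -0.20. Of its 5 probe sets 4 reached the floor, and these 4 differed by between -0.33 and -0.12 without the Apc mutation. With it, 3 of the 4 differed by between -0.22 and -0.20 and the dimmest of the 4 by 0.35. The fifth read at most 3.61, within the range of the bacterial controls.

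Among the importers, Slc39a4, the apical zinc importer mutated in acrodermatitis enteropathica, read 10.74, 11.11, 10.80 and 11.23 in the same order. It was higher in both Vhl deleted arrays, by 0.37 and 0.43. Slc39a5, a basolateral importer of intestine and pancreas, read 9.35, 9.42, 9.46 and 9.53, and its groups overlapped. The range of Slc39a5 over the 4 arrays was 0.18, the smallest of the highest-mean probe sets of the 10 genes. Slc39a8 read 9.01, 8.21, 8.51 and 8.39. Its Vhl difference was -0.81 without the Apc mutation and -0.13 with it, and the Vhl floxed array stood above the other 3. That array also held the high hepatocyte levels (a mean of 8.72 against 5.34 to 5.46), whose part in the Slc39a8 value was not tested. The difference of -0.13 comes from the pair of arrays with the Apc mutation, where single hepatocyte markers differed by between -0.90 and 0.98. The second Slc39a8 probe set did not reach the floor.

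**Figure D3:**
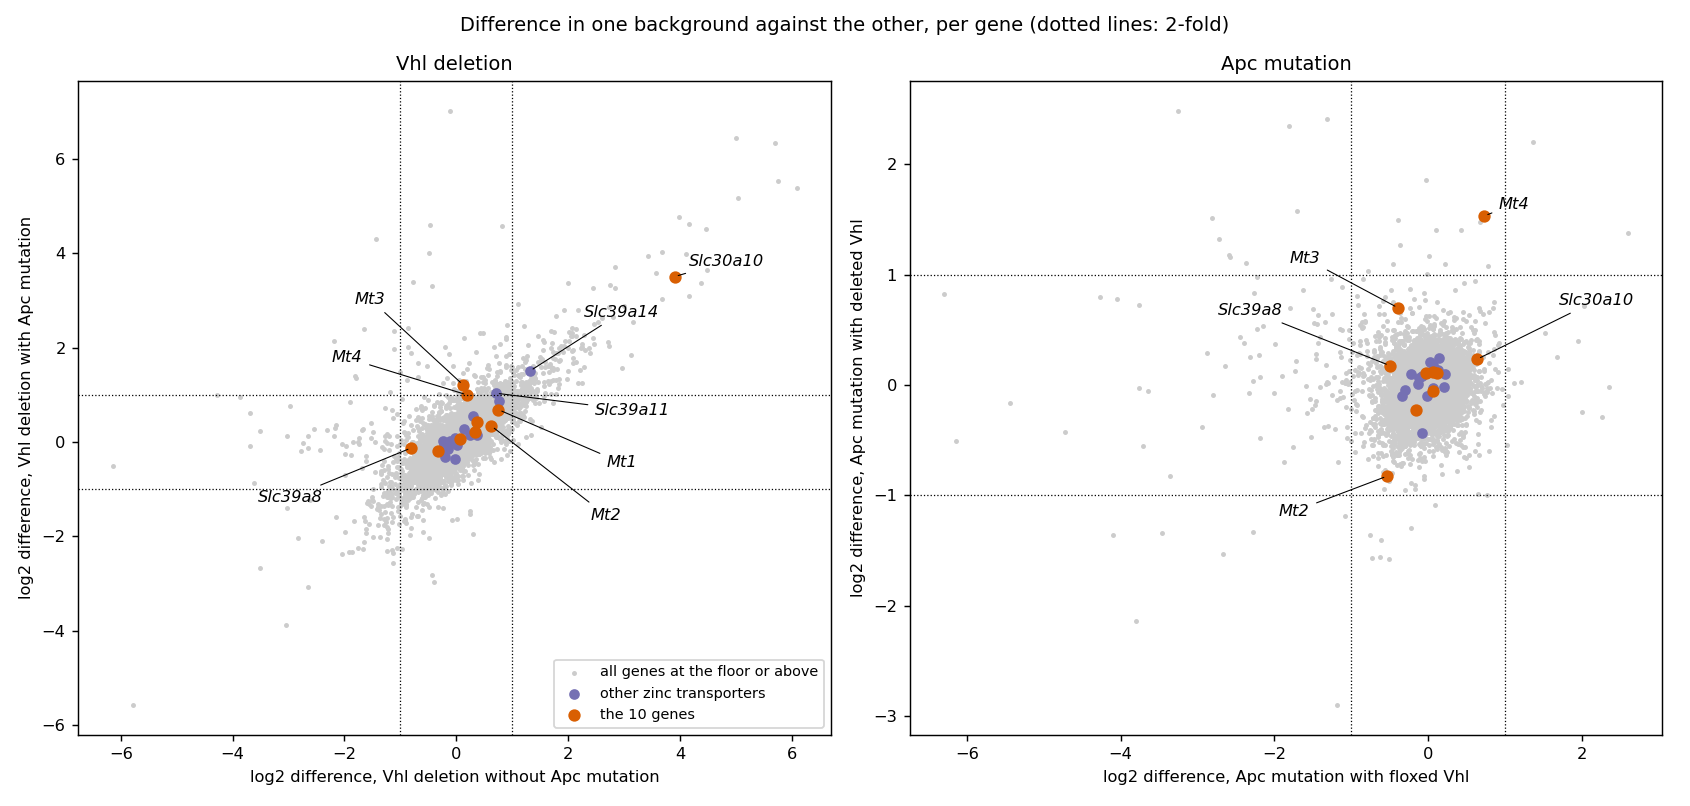
Log2 differences in one background (x axis) against the other (y axis) for the 11871 genes tested (grey), the 10 genes (orange) and the other zinc transporters (purple), for Vhl deletion on the left and the Apc mutation on the right, with dotted lines at 2-fold. Slc30a10 lies at 3.91 and 3.50 on the left, and Mt4 at 0.73 and 1.53 on the right.

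The Apc mutation went with smaller differences. With floxed Vhl 0 of the 10 genes were at least 2-fold apart, where 0.118% of all genes were higher and 0.901% lower. With deleted Vhl 1 gene was at least 2-fold higher, where 0.202% of all genes were, and 0 were lower, where 0.118% were. At least 1.5-fold apart were 2 of 10 genes with floxed Vhl, where 3.41% of all genes were, and 3 of 10 with deleted Vhl, where 1.52% were. The gene past 2-fold was Mt4, higher by 1.53 with deleted Vhl and by 0.73 with floxed Vhl, with the limits of its dim values given above: it entered the comparison through its value in the Vhl deleted Apc Min array, and the array it is set against there read 5.11. The median of the 10 genes was 0.02 with floxed and 0.11 with deleted Vhl, beside 0.00 and 0.00 over all genes. The Vhl and Apc comparisons share arrays, so a high or low array enters both.

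Mt2 was lower with the Apc mutation in both Vhl backgrounds, by -0.53 and -0.82. With deleted Vhl it ranked 26 from the lowest of 11871 genes. Its neighbour Mt1 differed by -0.15 and -0.22 on the brighter and by -0.17 and -0.46 on the dimmer probe set. Slc30a10 differed by 0.64 and 0.24, or by 0.44 and 0.25 on its second probe set. Mt3 differed in opposite directions, by -0.39 with floxed and 0.70 with deleted Vhl, and so did Slc39a8, by -0.50 and 0.18. The Apc differences of Mtf1, Slc30a1, Slc39a4 and Slc39a5 lay between -0.05 and 0.12 on their highest-mean probe sets. In all, 6 of the 10 genes had the same sign in both Apc comparisons, as did 58.6% of all genes.

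The other 19 genes of the ZnT and ZIP families gave the same comparison beyond the 10 genes. Of these, 16 reached the floor, and Slc30a2, Slc30a8 and Slc39a12 did not. Without the Apc mutation 1 of 16 was at least 2-fold higher with Vhl deletion, where 2.27% of all genes were, and with it 2 were, where 2.82% of all genes were. In each background 0 of 16 were lower by that much, where 1.6% and 1.52% of all genes were. Their medians were 0.00 and 0.06. Slc39a14, the importer of zinc, iron and manganese, was the gene higher in both. All 4 of its probe sets lay higher with Vhl deletion, by 0.82 to 1.32 without and 0.56 to 1.504 with the Apc mutation. Slc39a11, a zinc importer, read 10.67, 11.38, 10.45 and 11.48 in the order used above, higher by 0.70 and 1.03. Slc39a2 read 5.20, 5.97, 5.34 and 6.21, near background, higher by 0.77 and 0.88. It passed the floor of 6 through the Vhl deleted Apc Min array alone, so it could enter the comparisons only by being higher there. Slc39a10 was higher by 0.30 and 0.56. The other 12 differed by between -0.23 and 0.38 without and between -0.37 and 0.27 with the Apc mutation on their highest-mean probe sets. Slc30a5 and Slc30a6, which act together in the early secretory pathway, differed by 0.02 and -0.06 and by 0.38 and 0.15.

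**Figure D4:**
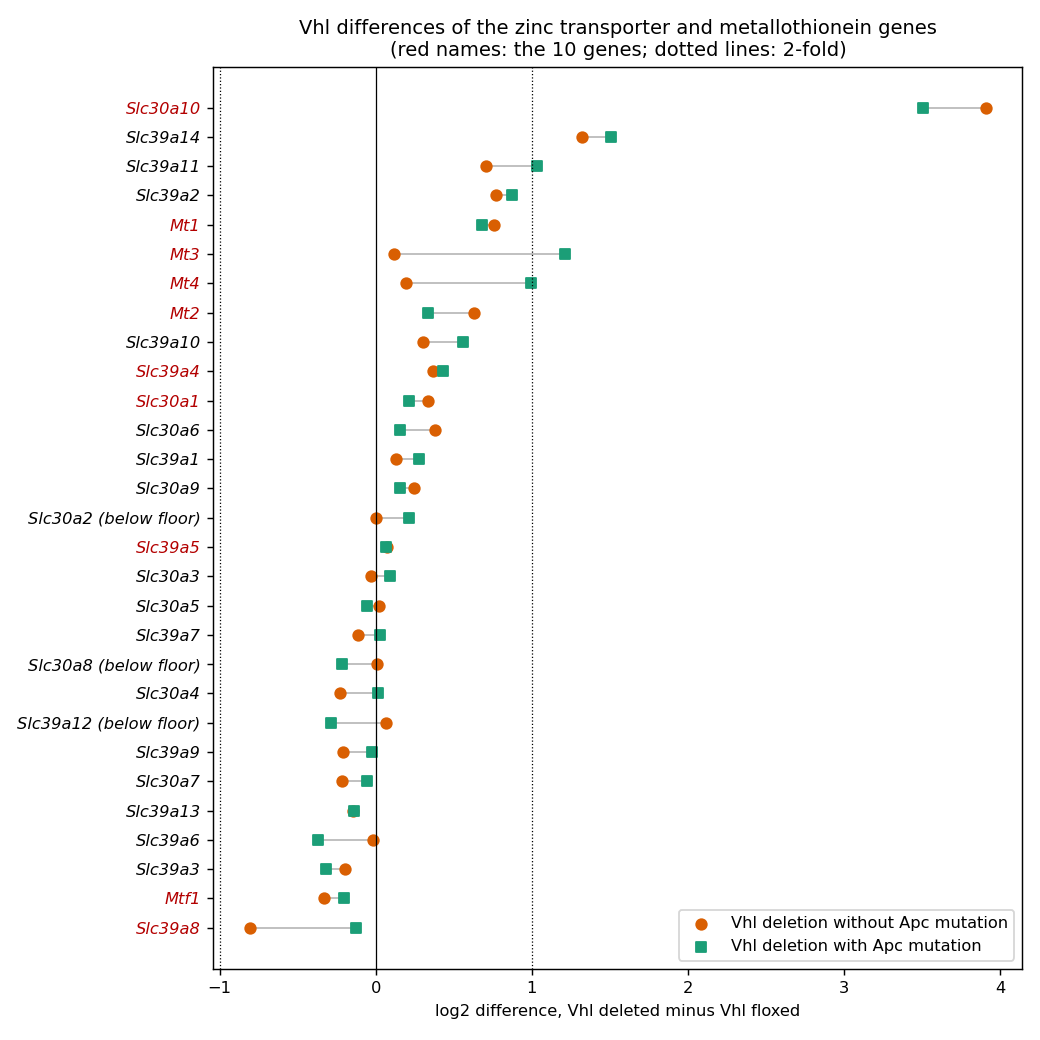
Log2 difference between the Vhl deleted and the Vhl floxed array (x axis) for all 29 genes of both groups, without (circles) and with (squares) the Apc mutation, ordered by the sum of the differences, red names marking the 10 genes. Slc30a10, at 3.91 and 3.50, is followed by Slc39a14, at 1.32 and 1.504.

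Genes of the neighbouring metal and oxidant responses were taken as lists. Of 10 genes listed for the metal and oxidant response, 8 were on the array under these symbols and 7 reached the floor. The median Vhl differences were 0.50 and 0.63. In each background 6 of 7 lay above 0, as did 5532 of all 11871 genes without and 5515 with the Apc mutation. Without the Apc mutation 1 was at least 2-fold higher, where 2.27% of all genes were. With it 0 were, where 2.82% were. Hmox1, the heme-degrading oxygenase, was that gene, at 1.07 and 0.81. It read 5.53, 6.60, 5.71 and 6.52 in the order Vhl floxed, Vhl deleted, Vhl floxed Apc Min and Vhl deleted Apc Min. Hmox1 passed the floor of 6 through the Vhl deleted arrays alone, so it could enter these counts only by being higher there. Gclm and Gclc encode the modifier and catalytic subunits of the enzyme that starts glutathione synthesis. Gclm was higher by 0.69 and 0.71, while Gclc differed by -0.58 and -0.67. Srxn1, which repairs peroxiredoxins, was higher by 0.65 and 0.67. Of 7 manganese handling genes the median was -0.03 and 0.24, and 1 was at least 2-fold higher in each background, the divalent metal importer Slc11a2, where 2.27% and 2.82% of all genes were. Atp2c1 and Atp2c2, the calcium and manganese pumps of the secretory pathway, differed in opposite directions, by 0.26 and 0.30 and by -0.64 and -0.71. Slc40a1, the iron exporter ferroportin, was higher by 0.87 and 0.47.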

How the data were processed

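RNA from scraped colon mucosa was measured on an Affymetrix mouse array. The authors deposited log2 values; the submitters' processing notes name affy and RMA, with no version stated. RMA subtracts background, equalises the distributions of the arrays and summarises probes, so dim differences can be compressed. Equal-rank values differed by at most 0.141 between arrays. Probe sets were named from the platform annotation, which can be old; all 18 symbols matched RefSeq (GRCm38.p6) by Entrez identifier. Each gene took its highest-mean probe set. The 11871 genes reaching 6 in at least 1 array were compared by subtraction, and a 2-fold difference was counted; no test was made between single arrays. The number of arrays limits the precision. Members and lists were chosen with earlier results of these data known. The genes named were the 10 members, and in related lists those at least 2-fold apart with Vhl status or with the 3 largest mean differences; further genes were chosen after their values were seen. Small intestinal enterocyte markers had mean levels between 7.42 and 8.24, but single markers moved more. Their Vhl differences ran from -1.68 (Apoc3) to 2.10 (Mttp) in mice lacking the Apc mutation. In Apc Min mice they ran from -1.47 (Apoa4) to 2.01 (Fabp2). Their Apc differences ran from -2.67 (Apoc3) to 0.53 (Rbp2) with floxed Vhl. With deleted Vhl they ran from -2.90 (Apoa4) to 0.86 (Alpi). The part of these markers in the results was not tested. Alternatives were other floors, raising low values, averaging probe sets, cyclic loess and a 1.5-fold threshold. Another left out probe sets ending in _s_at, _x_at or _a_at, whose probes can match more than 1 transcript. The counting was tested on simulated data. Tools were R 4.3.3 with limma 3.58.1, and Python 3.11.15 with pandas 2.3.3, numpy 2.4.6 and matplotlib 3.10.9.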

Additional observations from a re-analysis of the deposited data

Results flagged for a closer look

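Mt3 differed with the Apc mutation in opposite directions in the Vhl backgrounds, by -0.39 with floxed and 0.70 with deleted Vhl, which are 1.09 apart. The difference between the backgrounds was not tested, since each value is 1 array minus another. All 4 Mt3 values lay between 6.23 and 7.44 on a single probe set.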

How the results depend on the processing

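Counts of genes at least 2-fold apart were small, so 1 gene can move them. Without the Apc mutation 1 of the 10 genes was apart with Vhl deletion. There were 2 when probe sets were averaged or when those ending in _s_at, _x_at or _a_at were left out, in both cases through Mt1. Mt1 then differed by 1.22 and 1.68 without the Apc mutation, and by 1.03 and 1.39 with it. The 1 gene apart for the Apc mutation with deleted Vhl, Mt4, fell away (0 genes) when the floor was 7. It also did (0 genes) when low values were raised to 6, where its difference was 0.64. At a 1.5-fold threshold 4 genes were apart for Vhl deletion in each background, and 2 and 3 for the Apc mutation with floxed and deleted Vhl. Of the other zinc transporters 3 were then apart without the Apc mutation, the dim Slc39a2 among them. Leaving out the probe sets with those 3 endings left 1 apart with it, since the only probe set of Slc39a11 ends in _a_at. Slc39a5 dropped out of the 10 genes for the same reason, which left 9. Under cyclic loess Mt4 differed by 1.01 for Vhl deletion with the Apc mutation. The difference of Slc30a10 with Vhl deletion lay between 3.48 and 3.94 under the alternatives that change its value. No member's called difference turned its sign under any alternative run. No replicate could be left out, since each genotype has 1 array. No paired analysis was possible because the genotypes share no more than 1 replicate number; each Vhl difference is already taken within 1 Apc background. An additive model of Vhl and Apc over the 4 arrays, which leaves 1 residual degree of freedom, was not fitted. Signal near background limits Mt4 and Slc39a2.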

Other observations

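Copper genes, whose metal metallothioneins also bind, lay on both sides of 0, with 8 above and 4 below without the Apc mutation and 6 and 6 with it. Of all 11871 genes, 5532 lay above 0 without and 5515 with the Apc mutation. Of 12 copper handling genes, all at the floor or above, 1 was at least 2-fold higher with Vhl deletion in each background, where 2.27% and 2.82% of all genes were. It was not the same gene: Atp7b without and Cp with the Apc mutation. The medians were 0.12 and 0.04. The copper oxidase ceruloplasmin, Cp, was higher by 0.93 and 1.26. The copper pump Atp7b had its lowest value, 5.48, in the Vhl floxed array, where the other 3 arrays gave 6.41 to 6.59, a difference of 1.11 without and -0.04 with the Apc mutation. The importer Slc31a1 differed by 0.11 and -0.17, and the pump Atp7a by 0.13 and 0.12.

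Glucocorticoids also induce metallothioneins. Of 10 genes of the glucocorticoid response, 1 was at least 2-fold higher with Vhl deletion in each background, where 2.27% and 2.82% of all genes were, and the medians were 0.04 and 0.13. The phosphatase Dusp1 was higher by 1.33 and 1.35. The kinase Sgk1 differed by 0.55 and 0.43, and the receptor signalling inhibitor Errfi1 by 0.53 and 0.48. The clock gene Per1 differed by -0.50 and -0.57, and the transcription factor Klf9 by -0.41 and -0.57. Fkbp5 and Tsc22d3, induced directly by the receptor, differed by 0.07 and 0.09 and by 0.01 and 0.09. The other 3 genes, Zbtb16, Pik3r1 and Ddit4, lay between -0.24 and 0.21.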
